A study of Mus musculus with 28 samples.

Results

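The genes described are 10 integrin subunits of the mouse, 6 alpha chains (Itga1, Itga2, Itga3, Itga5, Itga6, Itgav) and 4 beta chains (Itgb1, Itgb4, Itgb5, Itgb6). They were taken by gene symbol, and all 10 had a row among the 29413 genes of the BMP table and the 55416 genes each of the TGFb and mesenchymal tables. The series holds 28 RNA-seq samples. The BMP table has 20 samples of small-intestinal organoids, which are crypt-derived epithelial cultures, from wild-type C57BL/6 mice. They are 4 untreated controls (replicates II, III, IV and VI), 4 samples given BMP2 (same numbers), 3 given BMP3 (II, III and IV), and 3 each given BMP4, BMP5 or BMP7 (II, III and VI). The TGFb table has 3 untreated and 3 Tgfb-treated samples (I, II and III) of organoids of the same genotype. Recombinant ligand was given at 500 ng/ml for 24 h in every treated group. Crypts, of controls too, were first seeded for 48 h in ENR medium with no BMP or Tgfb ligand; the medium used during treatment is not given in the sources used here. The mesenchymal table has 1 sample of Pdgfra-positive duodenal cells of a PdgfraH2BeGFP mouse, labelled fresh, and 1 of such cells immortalised with a retrovirus for HPV16 E6, selected in puromycin and sorted for high eGFP. That line is 1 culture, and neither mesenchymal sample has a replicate.

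Integrins are transmembrane receptors made of 1 alpha and 1 beta chain, which tie the extracellular matrix outside the cell to the cytoskeleton inside. Itgb1 is the common partner: it pairs with Itga1 and Itga2 to bind collagen, with Itga3 and Itga6 to bind laminin, and with Itga5 to bind fibronectin. Itgb4 pairs with Itga6 alone and forms the hemidesmosome, which anchors keratin filaments to the basement membrane. Itgav pairs with Itgb5, a vitronectin receptor, and with Itgb6, an epithelial chain that binds the latent form of Tgfb and releases it. In the intestine these chains hold the epithelium to the basement membrane along the crypt and villus. BMP and Tgfb ligands signal through receptor kinases to Smad proteins, which act on transcription.

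Every member was detected in every organoid sample. All 10 rose with BMP2, BMP5 and BMP7, and none changed with BMP3. With BMP4, 6 rose, 3 fell and 1 did not pass the test. With Tgfb all 10 rose where the filter on low values let them be tested. Itgav and Itgb6 moved furthest with BMP2, by 15.1-fold and 14.2-fold, and also had the largest changes with BMP5 and BMP7. The direction under BMP4 split the family. All 4 beta chains rose, and so did the alpha chains Itga3 and Itgav. The collagen-binding and fibronectin-binding alpha chains Itga1, Itga2 and Itga5 fell. The BMP4 calls of Itga2, Itgb1 and Itgb6 were lost in some alternative runs, as given below.

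The promoters of 4 members are shown here. These genes rose with BMP2, BMP5 and BMP7, as all 10 members did, and Itga2 alone of the 4 fell with BMP4. That BMP4 call was lost in some alternative runs. Sequences are RefSeq's, build GRCm38.p6, and are the 250 bases before the annotated start, 5′ to 3′ on the gene's strand. Capitals mark every match to GTCTG or its reverse complement CAGAC, the core sequence that Smad proteins are known to bind, and in Itgb1 also GGCGCC, a GC-rich Smad sequence, and GGAATG, the TEAD sequence.
Itgav (chr2:83724147-83724396, plus strand): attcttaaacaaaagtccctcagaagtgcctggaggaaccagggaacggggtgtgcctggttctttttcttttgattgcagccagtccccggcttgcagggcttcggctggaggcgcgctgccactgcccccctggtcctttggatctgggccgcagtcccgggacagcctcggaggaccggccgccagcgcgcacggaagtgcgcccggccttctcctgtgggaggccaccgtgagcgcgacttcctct
Itgb6 (chr2:60722604-60722853, minus strand): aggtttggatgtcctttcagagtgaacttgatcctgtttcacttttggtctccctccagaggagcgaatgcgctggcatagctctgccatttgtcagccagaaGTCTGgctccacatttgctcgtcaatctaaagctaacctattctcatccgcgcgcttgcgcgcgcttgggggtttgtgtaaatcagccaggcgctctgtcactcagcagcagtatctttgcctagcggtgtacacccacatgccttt
Itga2 (chr13:114932101-114932350, minus strand): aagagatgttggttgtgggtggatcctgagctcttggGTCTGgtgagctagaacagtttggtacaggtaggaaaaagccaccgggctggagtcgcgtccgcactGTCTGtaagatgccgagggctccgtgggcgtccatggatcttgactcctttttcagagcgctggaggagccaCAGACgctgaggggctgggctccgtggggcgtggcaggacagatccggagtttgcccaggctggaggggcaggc
Itgb1 (chr8:128685404-128685653, plus strand): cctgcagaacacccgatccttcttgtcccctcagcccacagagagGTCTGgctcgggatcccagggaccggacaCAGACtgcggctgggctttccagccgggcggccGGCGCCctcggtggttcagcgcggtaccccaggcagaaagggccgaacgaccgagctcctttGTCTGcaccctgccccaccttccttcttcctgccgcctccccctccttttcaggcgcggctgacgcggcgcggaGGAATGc
Itga2 and Itgb1 each held 3 matches to GTCTG, the Itgb6 start shown held 1, and Itgav held none. The second start of Itgb6 held none. The matches of Itga2 began 213, 146 and 74 bases before the start, and that of Itgb6 began 147 bases before it. The table held 10 promoters for 8 of the members, since Itga3 and Itgb6 have 2 starts each, and none for Itga6 or Itgb4. GTCTG on either strand was present in 5 of these 10, against 42.2% of the 32851 promoters of the table. TGANTCA, the AP-1 sequence, was in 0 of 10, against 6.7% of all promoters. GGCGCC was in 1 of 10, against 9.6%, and GGAATG in 1 of 10, against 12.6%. A match is a description of these letters and not a binding site.

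In the BMP table the values are normalised counts, that is, gene counts divided by a size factor, so they compare samples for a gene and not genes with each other. The reads behind each BMP sample numbered 21354956 to 24781434, and the depth of the TGFb and mesenchymal samples is unknown because TPM keeps none. Differences are log2 fold changes of value + 1 with their standard error (SE) from a limma fit, which understate the change of low genes, and each p is Benjamini-Hochberg adjusted across every tested gene. A gene was called at an adjusted p under 0.05. The labels do not say whether replicates came from separate cultures or animals, so a p-value measures only the spread between these samples. In bulk RNA, fewer cells of a type and less RNA per cell cannot be told apart. Organoid samples had high epithelial marker sums (6 genes, 81300 to 537900 normalised counts) and low mesenchymal ones (8 of 10 listed genes had a row, 35.4 to 248.1). Epithelial markers were thus present in every organoid sample, and Col3a1 and Des, both mesenchymal, were at 0 in every control. Among 4 endothelial markers with a row the sum of 561.4 to 1032 came almost wholly from Pecam1, with Cdh5 and Kdr at 0 in the controls. The immune marker sum was 76.5 to 268.1 over 8 genes.

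Calls were frequent in these comparisons, so the members' counts stand beside the share of all 14746 tested genes. With BMP2, 10 of 10 members were higher, against 36.8% of all genes higher and 38.4% lower. With BMP5, 10 of 10 were higher, against 16.5% higher and 9.87% lower, and with BMP7, 10 of 10, against 19.2% and 13.2%. With BMP4, 6 of 10 were higher and 3 lower, against 33.7% and 31.4%. The median log2 fold change of the members was 2.59 with BMP2 (all genes -0.03), 1.21 with BMP5 (-0.03), 1.42 with BMP7 (-0.05) and 0.64 with BMP4 (0.04). Among the alpha chains alone the BMP4 median was 0.00, and among the beta chains it was 1.01. No member's treated values overlapped its controls under BMP2, BMP5 or BMP7, and under BMP4 only those of Itga6 did. The share of all genes with or without such overlap is not given, here or in the comparisons below, so overlap describes the members only.

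**Figure D1:**
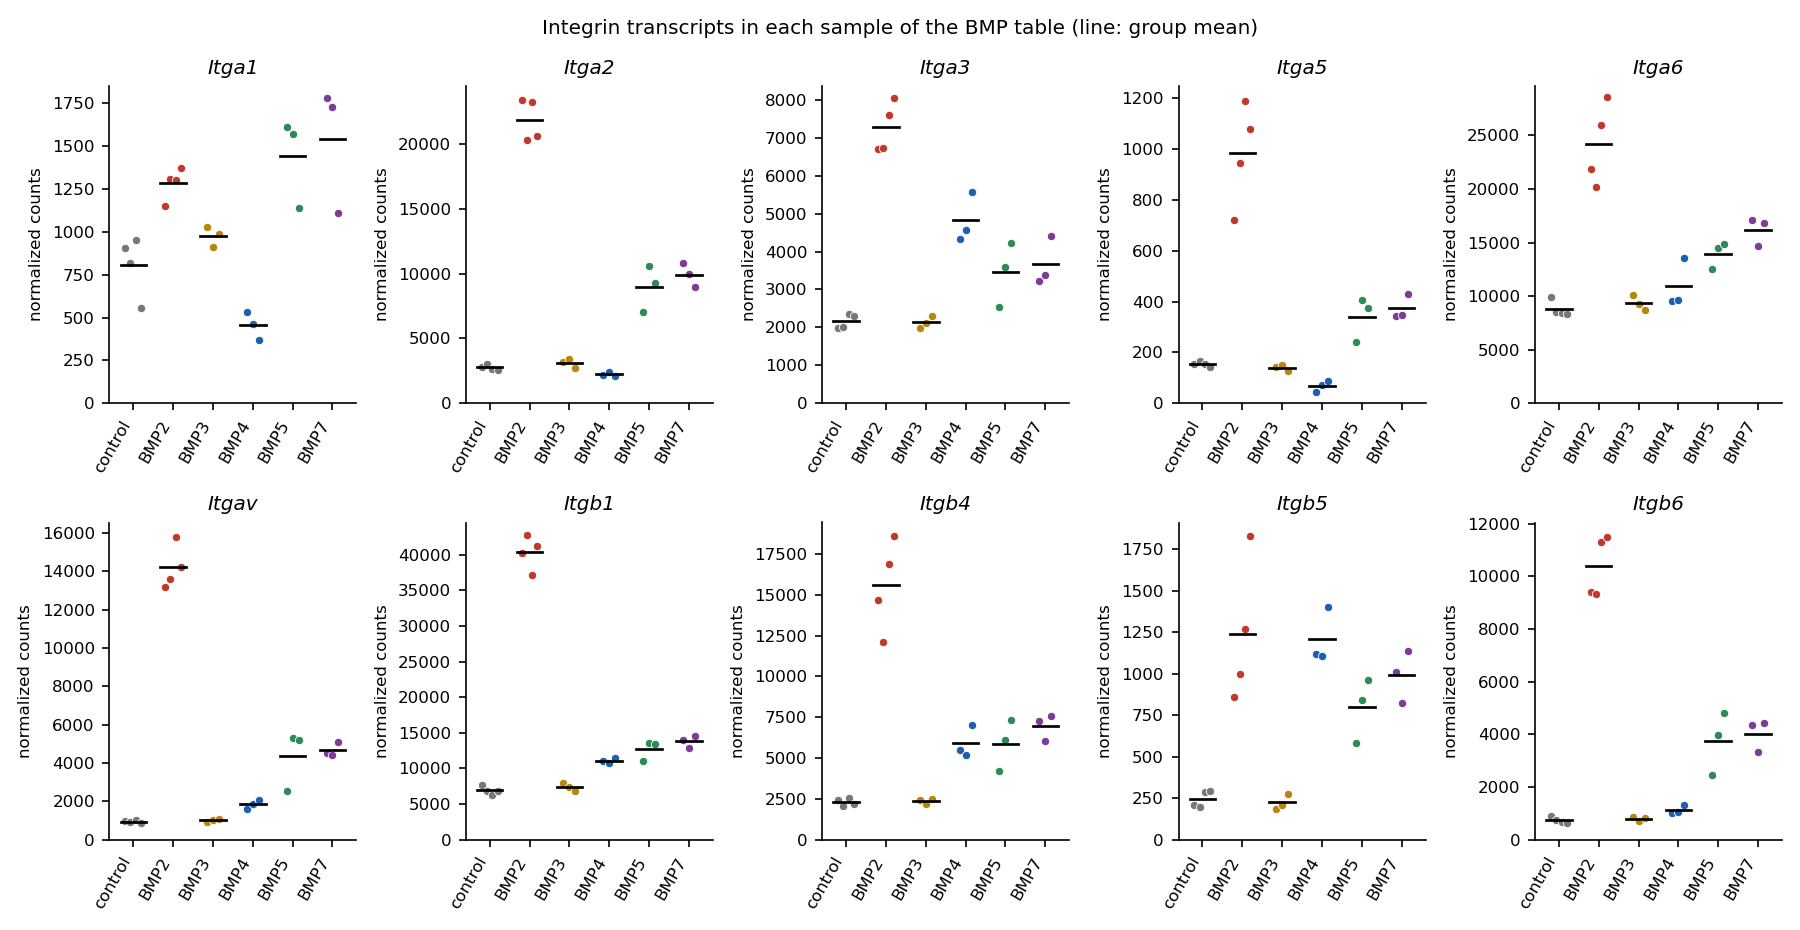
Normalised counts (vertical axis, from 0) of the 10 integrin transcripts in each of the 20 organoid samples of the BMP table, by ligand; points are samples and lines are group means. BMP2 points stand above all controls for every gene, BMP3 ranges overlap those of the controls, and the Itga1, Itga2 and Itga5 points of BMP4 lie below the controls.

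Itgav (ENSMUSG00000027087), the alpha chain of the vitronectin and latent Tgfb receptors, read 953, 938, 1010 and 863 normalised counts in controls II, III, IV and VI. It read 13200, 13600, 15800 and 14200 with BMP2. BMP5 gave 2550, 5290 and 5200 and BMP7 4500, 4420 and 5120 in replicates II, III and VI, and BMP4 gave 1620, 1840 and 2060. The order was BMP2 above BMP5 and BMP7, these above BMP4, and BMP4 above the controls, with overlap only between BMP5 and BMP7. The log2 fold change was 3.91 (SE 0.16, limma adjusted p = 5e-13) with BMP2, 2.13 (SE 0.18, adjusted p = 1.68e-07) with BMP5, 2.31 (SE 0.18, adjusted p = 4.63e-08) with BMP7 and 0.96 (SE 0.18, adjusted p = 0.000106) with BMP4.

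Itgb6 (ENSMUSG00000026971), the epithelial beta chain of the latent Tgfb receptor, read 892, 741, 669 and 639 normalised counts in the controls. With BMP2 it read 9410, 9320, 11300 and 11500. With BMP5 it read 2440, 3960 and 4830, with BMP7 4340, 3320 and 4420, and with BMP4 997, 1040 and 1300. All treated samples of these 4 ligands lay above the highest control, and those of BMP4 lay nearest to it. The increase was 3.82 (SE 0.17, limma adjusted p = 9.71e-13) on the log2 scale with BMP2, 2.30 (SE 0.19, adjusted p = 1.35e-07) with BMP5 and 2.45 (SE 0.19, adjusted p = 4.1e-08) with BMP7. With BMP4 it was 0.60 (SE 0.19, adjusted p = 0.00818), and that call was lost without BMP4 replicate VI (0.48, adjusted p = 0.0514) and when every sample was scaled to the same total (0.20, adjusted p = 0.314).

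Itgb5 (ENSMUSG00000022817), the beta chain of the other Itgav receptor measured here, had a different order of ligands. Controls read 212, 197, 287 and 295 normalised counts, BMP2 samples 861, 1000, 1270 and 1830, and BMP4 samples 1120, 1110 and 1400. BMP5 samples read 586, 842 and 964 and BMP7 samples 1010, 826 and 1140. The BMP2 and BMP4 ranges overlapped, and every sample of these 4 ligands lay above the controls. Itgb5 was the member with the highest change under BMP4, 2.30 (SE 0.23, limma adjusted p = 8.98e-08) on the log2 scale, beside 2.28 (SE 0.21, adjusted p = 1.5e-08) under BMP2. The changes were 1.67 (SE 0.23, adjusted p = 3.23e-05) with BMP5 and 2.01 (SE 0.23, adjusted p = 3.19e-06) with BMP7.

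Itga2 (ENSMUSG00000015533), the collagen-binding chain with the higher level of the pair, read 2820, 3020, 2640 and 2550 normalised counts in the controls and 23400, 20300, 23200 and 20600 with BMP2. It read 7000, 10600 and 9310 with BMP5 and 10800, 9940 and 9000 with BMP7. With BMP4 it read 2190, 2390 and 2120, below every control. Its log2 fold change was 2.99 (SE 0.11, limma adjusted p = 2.42e-13) with BMP2, 1.68 (SE 0.12, adjusted p = 6.75e-08) with BMP5 and 1.85 (SE 0.12, adjusted p = 1.46e-08) with BMP7. Under BMP4 it fell by 0.30 (SE 0.12, adjusted p = 0.036). This small decrease was not called without control replicate II, control replicate III, BMP4 replicate II or BMP4 replicate VI (adjusted p = 0.0674, 0.0969, 0.0883 and 0.108), nor with no filter on low values (0.0641).

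Itga1 (ENSMUSG00000042284), the other collagen-binding chain, is the neighbour of Itga2 on the chromosome and shares 3.68% of its exon bases with the same-strand gene Gm49395. It read 908, 820, 950 and 553 normalised counts in controls II, III, IV and VI, with replicate VI lowest. It read 1150, 1310, 1300 and 1370 with BMP2, 1610, 1570 and 1140 with BMP5, 1780, 1730 and 1110 with BMP7, and 530, 462 and 370 with BMP4. Replicate VI was also the lowest of the BMP4, BMP5 and BMP7 samples. Itga1 was the only member whose BMP5 and BMP7 means, 1440 and 1540, exceeded its BMP2 mean of 1282. The log2 fold changes were 0.69 (SE 0.18, limma adjusted p = 0.00149) with BMP2, 0.85 (SE 0.19, adjusted p = 0.00259) with BMP5, 0.93 (SE 0.19, adjusted p = 0.000941) with BMP7 and -0.82 (SE 0.19, adjusted p = 0.00093) with BMP4. Its BMP2 call was lost when samples were scaled to the same total (0.24, adjusted p = 0.262).

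Itga5 (ENSMUSG00000000555), the fibronectin-receptor chain, was tightly grouped in the controls at 155, 165, 155 and 144 normalised counts. BMP2 samples read 721, 946, 1190 and 1080, BMP5 samples 242, 405 and 376, and BMP7 samples 343, 345 and 430. BMP4 samples read 45.0, 71.9 and 86.2. It thus stood above the controls with 3 ligands and below them with BMP4. The log2 fold change was 2.64 (SE 0.20, limma adjusted p = 4.98e-10) with BMP2, 1.10 (SE 0.21, adjusted p = 0.000693) with BMP5 and 1.26 (SE 0.21, adjusted p = 0.000156) with BMP7. The BMP4 value, -1.23 (SE 0.21, adjusted p = 4.76e-05), was the lowest of any member in any comparison with controls.

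Itga6 (ENSMUSG00000027111), the laminin-binding chain of the hemidesmosome, read 9890, 8540, 8400 and 8290 normalised counts in the controls, with replicate II apart from the other 3. It read 21900, 20200, 26000 and 28600 with BMP2, 12500, 14500 and 14900 with BMP5, and 17100, 14700 and 16800 with BMP7. These 3 groups lay above the controls. Its log2 fold changes were 1.45 (SE 0.13, limma adjusted p = 4.44e-09), 0.67 (SE 0.14, adjusted p = 0.00113) and 0.88 (SE 0.14, adjusted p = 6.29e-05). The BMP4 samples read 9590, 9660 and 13600, so that 2 of them lay below control replicate II. The BMP4 difference of 0.30 (SE 0.14, 95% interval 0.02 to 0.59, adjusted p = 0.0574) was not called. With the replicate number as a block, which pairs treated and control samples of the same number, it was 0.29 and called (adjusted p = 0.0404). It was also called in DESeq2 (0.33, adjusted p = 0.0276) and without control replicate II (0.36, adjusted p = 0.0363), BMP4 replicate II (0.39, adjusted p = 0.0352) or BMP4 replicate III (0.38, adjusted p = 0.0378). Its sign turned under other scalings, to -0.10 (adjusted p = 0.475) at the same total and -0.31 (adjusted p = 0.0307) after quantile normalisation, so its direction under BMP4 was set by the scaling.

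Itgb4 (ENSMUSG00000020758), the hemidesmosome beta chain, rose with all 4 of these ligands. Controls read 2430, 2080, 2580 and 2200 normalised counts, and BMP2 samples read 14700, 12100, 16900 and 18600. BMP4 samples read 5500, 5180 and 7030, BMP5 samples 4220, 6110 and 7320, and BMP7 samples 7280, 6030 and 7570. The BMP4, BMP5 and BMP7 ranges overlapped one another and none reached the BMP2 range. The log2 fold changes were 2.73 (SE 0.16, limma adjusted p = 1.71e-11) with BMP2, 1.34 (SE 0.17, adjusted p = 1.43e-06) with BMP4, 1.31 (SE 0.17, adjusted p = 1.57e-05) with BMP5 and 1.58 (SE 0.17, adjusted p = 1.4e-06) with BMP7. Of its exon bases, 7.66% lie opposite the antisense RNA B230344G16Rik, and 5.9% of those of Itgav lie opposite Gm13684. Whether the counting used strand is not given in the sources used here, so reads of such pairs could not be told apart.

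Itga3 (ENSMUSG00000001507), the other laminin-binding chain, was the only alpha chain with a larger change under BMP4 than under BMP5 and BMP7. Its means were 2162 ± 189 normalised counts in the controls (SD, n = 4), 7272 ± 675 with BMP2 (n = 4) and 4823 ± 665 with BMP4 (n = 3). They were 3453 ± 847 with BMP5 and 3670 ± 637 with BMP7, also over 3 samples. The log2 fold changes were 1.75 (SE 0.14, limma adjusted p = 1.09e-09), 1.15 (SE 0.15, adjusted p = 1.68e-06), 0.65 (SE 0.15, adjusted p = 0.003) and 0.75 (SE 0.15, adjusted p = 0.000676) in that order. The BMP4 samples, 4330, 4560 and 5580, overlapped the BMP7 samples, 3230, 3380 and 4400, and the difference between these ligands was not tested.

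Itgb1 (ENSMUSG00000025809), the common partner of the collagen, laminin and fibronectin chains, had the smallest standard error of the members. Controls read 7750, 6830, 6290 and 6830 normalised counts and BMP2 samples 40300, 42700, 37100 and 41200. BMP4 samples read 11000, 10800 and 11500, BMP5 samples 11000, 13600 and 13400, and BMP7 samples 14000, 12900 and 14500. Every sample of these 4 ligands lay above every control, and the BMP2 samples stood far above the rest. The log2 fold changes were 2.54 (SE 0.09, limma adjusted p = 1.71e-13) with BMP2, 0.68 (SE 0.10, adjusted p = 4.9e-06) with BMP4, 0.87 (SE 0.10, adjusted p = 3.04e-06) with BMP5 and 1.00 (SE 0.10, adjusted p = 4.45e-07) with BMP7. Quantile normalisation lowered the BMP4 value to 0.08 (adjusted p = 0.4), so that call depended on the scaling.

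**Figure D2:**
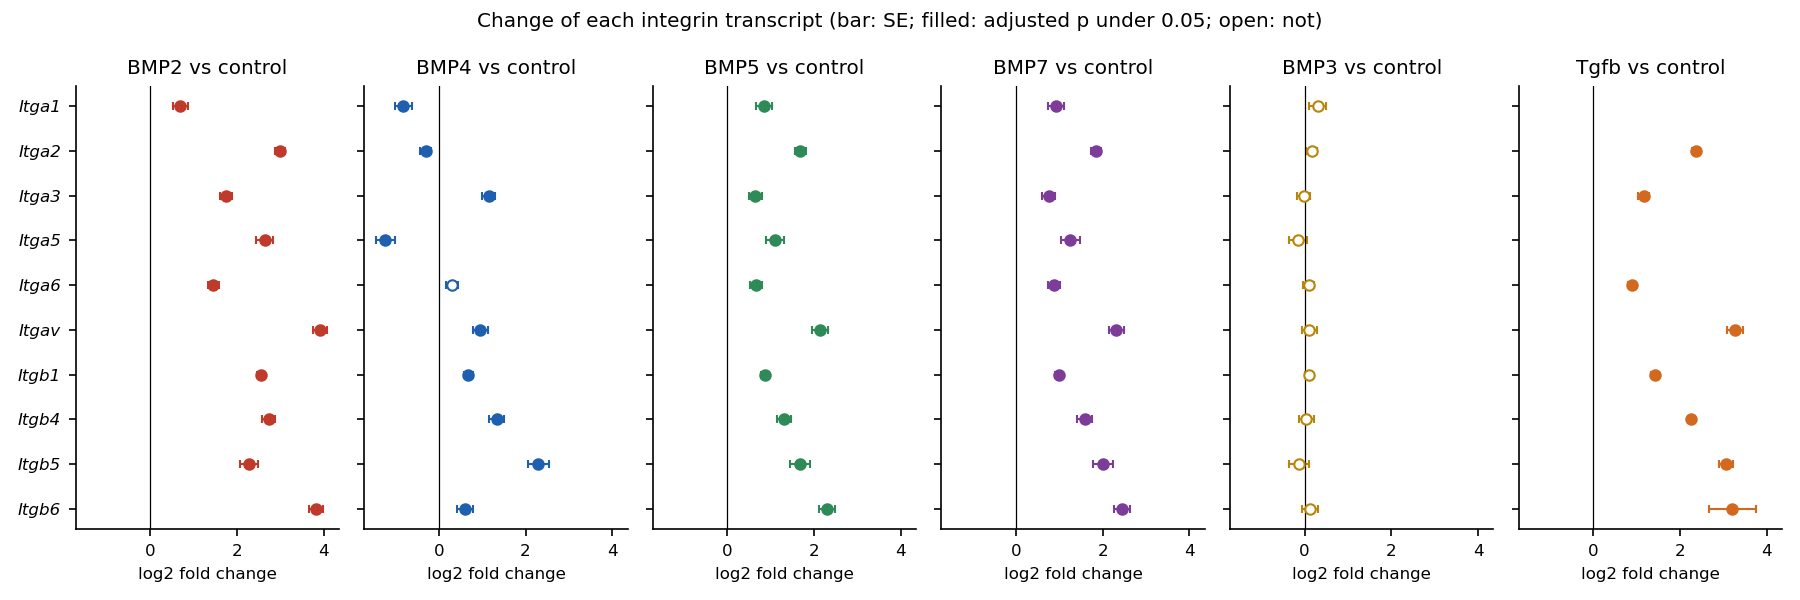
Log2 fold change against untreated controls (horizontal axis) of the integrin transcripts under each ligand, with bars for the standard error; filled points passed an adjusted p under 0.05 in limma and open points did not. Itgav and Itgb6 lie furthest right under BMP2 at 3.91 and 3.82, Itga1, Itga2 and Itga5 lie left of 0 under BMP4, and all BMP3 points are open; the BMP4 point of Itga6 changes side under 2 other scalings.

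Scaling moved the members' median most with BMP2 and BMP4. The summed normalised counts were 19885612 ± 702378 in the controls (SD, n = 4) and 27350549 ± 1181883 with BMP2 (n = 4) and 26232395 ± 706629 with BMP4 (n = 3). Giving every sample the same total moved the median of all genes by -0.45 with BMP2 and -0.39 with BMP4 on the log2 scale. The share of higher genes among the called ones went from 48.9% to 31.8% with BMP2 and from 51.7% to 31.1% with BMP4. Under quantile normalisation it went from 62.5% to 49.8% with BMP5 and from 59.4% to 48.0% with BMP7, and the same total gave 48.7% with BMP7. The members' median went from 2.59 to 2.13 with BMP2 and from 0.64 to 0.24 with BMP4 at the same total. Quantile normalisation moved the median of all genes by 0.03 and -0.01 and that of the members to 2.25 and 0.30, so the members' changes were smaller there too. At the same total 9 members were higher with BMP2, and 5 were higher and 3 lower with BMP4. After quantile normalisation 10 were higher with BMP2, and 5 were higher and 4 lower with BMP4. All 10 were higher with BMP5 and BMP7 under both scalings.

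BMP3 is a member of the family known for opposing other BMPs. The BMP3 and control ranges overlapped for all 10 members, though 2 of 3 BMP3 samples lay above every control for Itga1, Itga2 and Itgav and below every control for Itga5. The log2 differences ran from -0.15 (Itga5) to 0.30 (Itga1). The 95% intervals of the 10 differences ran from -0.62 at the lowest (Itgb5) to 0.70 at the highest (Itga1), so smaller changes could not be seen. None was called, and 0 members had an unadjusted p under 0.05. Over all genes 0 were called by limma (0% of 14746), with 110 at an unadjusted p under 0.05; edgeR called 0 (107 unadjusted) and DESeq2 called 1 (103 unadjusted).

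A moderated F-test in limma asked whether a gene differed among the 5 BMP ligands. It called 10 of 10 members, beside 84.1% of all tested genes, with adjusted p-values from 8.53e-13 (Itga2) to 8.18e-07 (Itga1). BMP3, which had no call against control, was among these ligands, so such a call does not show that the others differ from one another. Ligands were then compared directly in 2 contrasts at the same dose and time. BMP2 exceeded BMP4 for 9 of 10 members, beside 33.4% of all genes higher and 33.4% lower. The largest of these differences was that of Itga5, 3.87 (SE 0.21, adjusted p = 1.76e-11) on the log2 scale. Itga2 followed with 3.29 (SE 0.12, adjusted p = 2.51e-13) and Itgb6 with 3.22 (SE 0.19, adjusted p = 3.44e-11). Itga3 had the smallest called difference, 0.60 (SE 0.15, adjusted p = 0.00156). For Itgb5 the difference was -0.02 (SE 0.23, adjusted p = 0.956) with a 95% interval of -0.50 to 0.47, and its sign was positive in edgeR and DESeq2, so neither ligand could be placed above the other.

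BMP5 and BMP7 could not be told apart on the integrins. All 10 members overlapped between these ligands, and 0 were called and 0 had an unadjusted p under 0.05. The share of all genes that overlapped is not given. The differences, BMP5 against BMP7, ran from -0.33 (Itgb5) to -0.08 (Itga1), all on the side of BMP7, with 95% intervals from -0.85 to 0.34. Over all genes 2 were called (0.0136%), with 347 at an unadjusted p under 0.05; edgeR called 4 (392 unadjusted) and DESeq2 called 24 (424 unadjusted). The replicate block raised the limma count to 6. BMP5 replicate II was the lowest BMP5 sample for 9 of 10 members, Itga1 being the exception. In that sample the summed normalised counts of 5 crypt stem markers were 77170, against 27410 in replicate III and 39730 in replicate VI, and controls held 99820 to 124500. The part of this in the integrin values was not tested. All 10 members were called with BMP5 also without replicate II, while the count of all genes called for BMP5 against control, 3884, was 2517 without replicate III and 2531 without replicate VI.

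Tgfb given to organoids raised all 10 members at a minimum mean of 1 TPM, which every member also reached in the controls alone, beside 27.4% of all genes tested there. At the minimum mean of 10 TPM used for the values below, 8 members were tested and 8 were higher, beside 31.4% of the 7880 tested genes higher and 32.9% lower. Itgav and Itgb5 passed that minimum only through the Tgfb samples, and Itgb6 passed it in the controls only through replicate II, so the count of 8 is partly set by the filter. Itgav read 5.62, 5.66 and 8.91 TPM in controls I, II and III and 61.9, 76.9 and 78.8 TPM with Tgfb, a log2 fold change of 3.27 (SE 0.18, limma adjusted p = 7.7e-06). Itgb5 read 4.18, 6.78 and 5.67 TPM in the controls and 47.1, 56.8 and 54.6 TPM with Tgfb, a change of 3.06 (SE 0.16, adjusted p = 6.29e-06). Both chains of this receptor thus stood several times above every control. Itgb6 read 4.72, 24.3 and 4.88 TPM in the controls and 86.6, 85.0 and 88.3 TPM with Tgfb. Control replicate II stood apart for this gene, and every Tgfb sample still lay above it. The change was 3.21 (SE 0.54, adjusted p = 0.00165), and without control replicate II it was 3.92 (SE 0.08, adjusted p = 4.3e-06), which is 1 library moving the value by more than its standard error.

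Itga2 read 17.3, 17.8 and 20.2 TPM in the controls and 94.6, 96.8 and 109 TPM with Tgfb, a log2 change of 2.38 (SE 0.09, limma adjusted p = 1.9e-06). Itgb4 read 21.3, 21.7 and 21.3 TPM in the controls and 104, 103 and 112 TPM with Tgfb, a change of 2.25 (SE 0.06, adjusted p = 7.03e-07). Itgb1 rose from 95.4 ± 7.17 to 259 ± 23.6 TPM (SD, n = 3 each; 1.43, SE 0.10, adjusted p = 2.13e-05). Itga3 rose from 26.5 ± 3.64 to 60.5 ± 8.23 TPM (1.16, SE 0.13, adjusted p = 0.000212), and Itga6 from 184 ± 7.63 to 346 ± 37.2 TPM (0.90, SE 0.10, adjusted p = 0.000183). These 5 chains of the collagen and laminin receptors did not overlap between the groups either. Itga1 (4.01, 4.48 and 3.68 TPM in the controls, 10.6, 12 and 12.1 TPM with Tgfb) and Itga5 (2.46, 1.39 and 1.21 TPM, then 9.12, 6.08 and 7.98 TPM) fell below the minimum mean of 10 TPM. At the minimum mean of 1 TPM both were called (1.31, adjusted p = 8.41e-05, and 1.71, adjusted p = 0.000845).

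**Figure D3:**
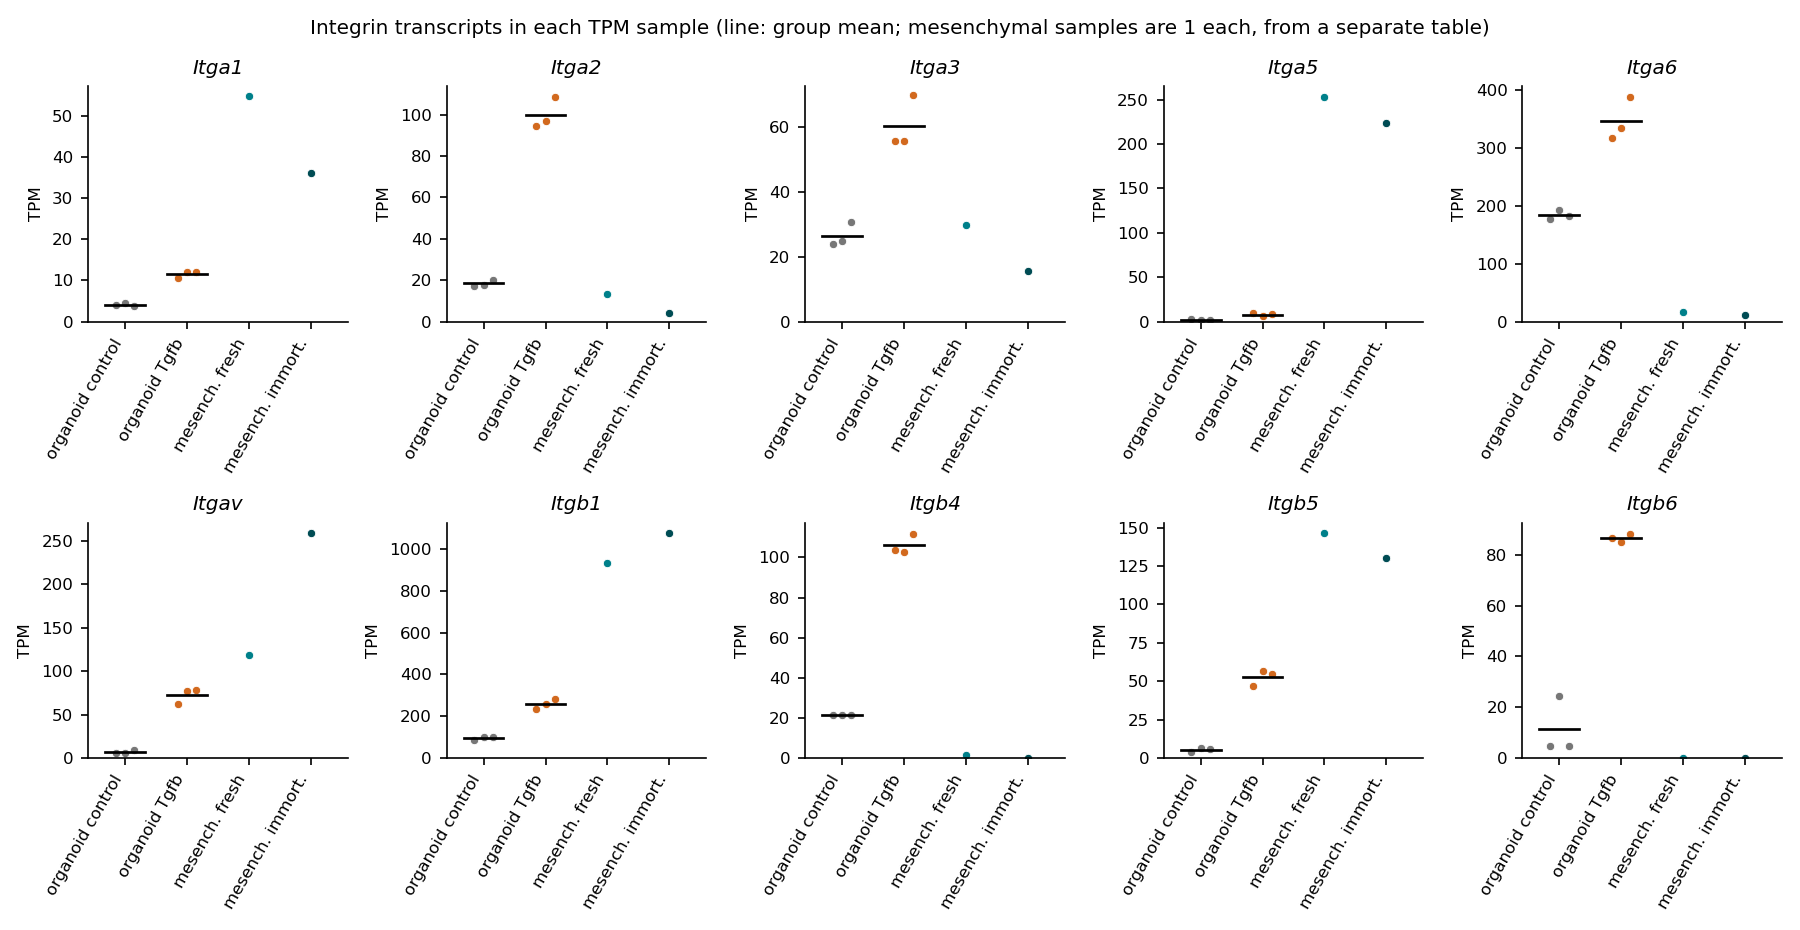
TPM (vertical axis, from 0) of the 10 integrin transcripts in 3 untreated and 3 Tgfb-treated organoid samples and in 1 fresh and 1 immortalised mesenchymal sample, which come from a separately scaled table; points are samples and lines are group means. Tgfb points stand above the controls in all 10 panels, control replicate II stands apart for Itgb6 at 24.3 TPM, and Itgb4 and Itgb6 lie near 0 in the mesenchymal samples.

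TPM corrects for transcript length, so levels can be ordered between genes. In untreated organoids the mean TPM ran from Itga6 (184) through Itgb1 (95.4), Itga3 (26.5), Itgb4 (21.4), Itga2 (18.4), Itgb6 (11.3), Itgav (6.73), Itgb5 (5.54) and Itga1 (4.05) to Itga5 (1.68). Neighbours from Itga2 down to Itga1 overlapped in their samples, and each of the upper 4 stood clear of the gene below it, as Itga1 did of Itga5. The place of Itgb6 rests on control replicate II: the mean of the other controls was 4.80 TPM, under those of Itgav and Itgb5. With Tgfb the order was Itga6 (346), Itgb1 (259), Itgb4 (106), Itga2 (99.99), Itgb6 (86.6), Itgav (72.5), Itga3 (60.5), Itgb5 (52.8), Itga1 (11.6) and Itga5 (7.73 TPM). There Itgb4 overlapped Itga2, Itgav overlapped Itga3, and Itga3 overlapped Itgb5.

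The summed level of the 10 transcripts went from 375 ± 25.4 to 1104 ± 91.8 TPM (SD, n = 3 each), with no overlap between the groups. Itgb1 made up 71.8% ± 5.60 of the beta transcripts in the controls and 51.3% ± 1.41 with Tgfb. Itgb6 went from 7.89% ± 6.97 to 17.2% ± 0.998 and Itgb5 from 4.11% ± 0.478 to 10.5% ± 0.693 of the beta transcripts. The Itgb6 share was 15.9% in control replicate II and averaged 3.87% in the other controls, an alternative chosen after seeing the data. Among the alpha transcripts Itga6 went from 76.3% ± 2.19 to 57.8% ± 0.448, Itgav from 2.78% ± 0.719 to 12.1% ± 1.00 and Itga2 from 7.62% ± 0.499 to 16.7% ± 0.47. For 11 of 13 such quantities the exact two-sided permutation p was 0.1, which is the smallest that 3 samples against 3 can give (0.118 after Benjamini-Hochberg adjustment over the 13), so the design could not reach 0.05. The share of Itga3, 10.9% ± 1.27 and 10.1% ± 0.456, overlapped between the groups (exact p = 0.5), as did that of Itga5, 0.704% ± 0.312 and 1.3% ± 0.321 (exact p = 0.2).

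**Figure D4:**
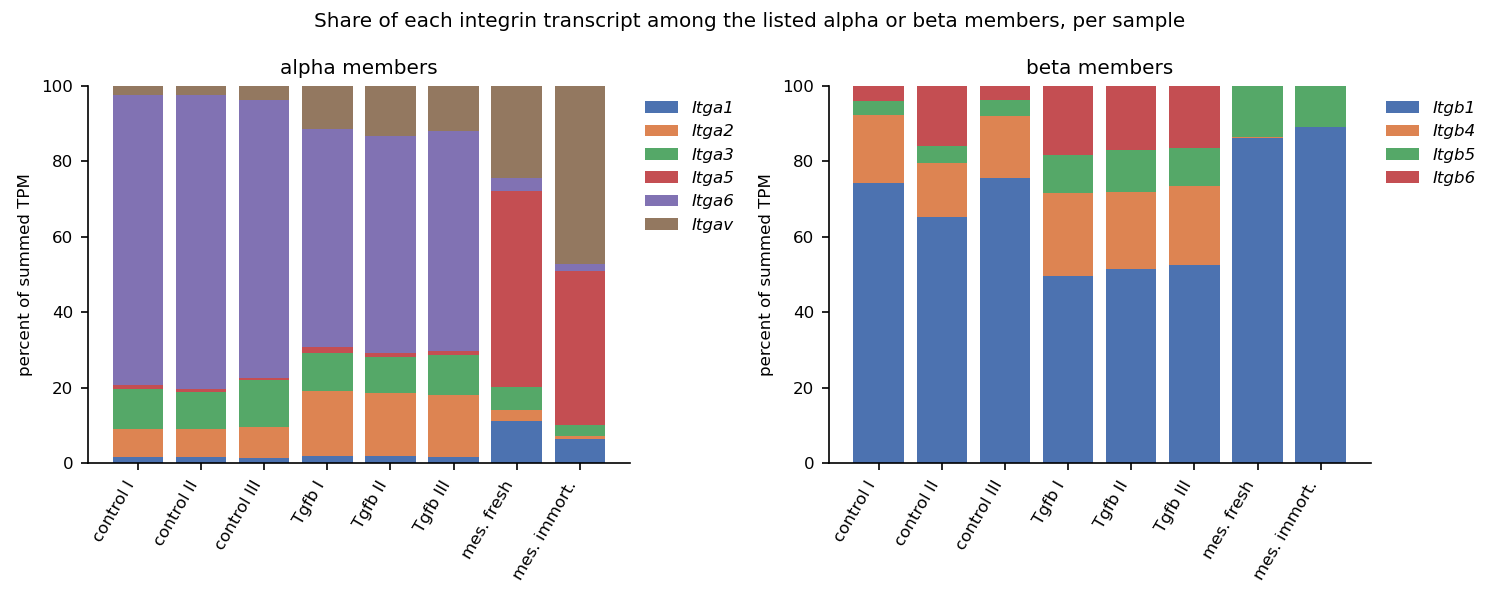
Percent of the summed TPM of the 6 alpha members (left) and the 4 beta members (right) taken by each transcript, in each organoid and mesenchymal sample. Itga6 and Itgb1 take the greatest part in untreated organoids and less with Tgfb, and Itga5, Itgav and Itgb1 take the greatest parts in mesenchymal cells.

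Mesenchymal cells, the stroma under the epithelium, had a different set of chains, with values from a separately scaled table and no test. Itgb1 was at 933 TPM in the fresh and 1078 TPM in the immortalised sample, Itga5 at 253 and 224 TPM, Itgav at 119 and 258 TPM, and Itgb5 at 146 and 130 TPM. Itgb4 was at 1.76 and 0.0966 TPM, and Itgb6 was listed at 0 and 0.0383 TPM. Itga5 and Itgav together with Itga1 (54.7 and 36.1 TPM) held most of the alpha transcripts: Itga5 alone held 52.1% and 40.8%, and Itga6 3.25% and 2.04%. The sum of the 6 epithelial markers was 5.92 and 6.68 TPM, against 2786 to 12130 TPM in the organoids of the TGFb table. Of these markers, Cdh1, Cldn7 and Vil1 were at 0 in both mesenchymal samples. The mesenchymal marker sum was 22870 and 13040 TPM, against 5.18 to 9.75 TPM in the organoids of the TGFb table. Among other subunits, Itga11 (80.4 and 32.9 TPM) and Itgb3 (41.2 and 5.54 TPM) were present there and listed at 0 in every organoid sample of the TGFb table.

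Of 17 other integrin subunits listed, 16 had a row in the BMP table, 8 passed the filter on low values there and 0 passed it in the TGFb table. With BMP2, 3 rose (Itga9, Itgb8, Itga2b) and 2 fell (Itga10, Itgam); with BMP5 and BMP7, Itga9 and Itgb8 rose. With BMP4, Itga7 and Itgam rose and Itga9 and Itgb8 fell. Itga9 and Itgb8 thus rose and fell as Itga1, Itga2 and Itga5 did. Of all genes 36.8% rose and 38.4% fell with BMP2, and 33.7% rose and 31.4% fell with BMP4. The counts of these subunits with BMP2 and BMP4 were near or under those shares. With BMP5 and BMP7, 16.5% and 19.2% of all genes rose. Itga4 and Itgae, chains known from lymphocytes, were called in none of these comparisons. Itgb8 and Itga2b averaged under the minimum of 10 normalised counts in the controls and passed it through the groups where they were high, so the filter favoured their calls.

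Itga9, a chain that pairs with Itgb1 and binds tenascin, moved in the direction of Itga1, Itga2 and Itga5 with each of these 4 ligands, at a low level. Controls read 34.6, 43.1, 36.4 and 23.1 normalised counts, BMP2 samples 285, 336, 500 and 285, BMP5 samples 187, 262 and 265, and BMP7 samples 150, 135 and 145. BMP4 samples read 4.74, 2.28 and 3.59, which are a few reads each. The log2 fold changes were 3.31 (SE 0.24, limma adjusted p = 4.61e-10) with BMP2, 2.78 (SE 0.26, adjusted p = 6.17e-07) with BMP5, 2.06 (SE 0.26, adjusted p = 9.13e-06) with BMP7 and -2.96 (SE 0.26, adjusted p = 1.82e-08) with BMP4. With Tgfb it read 8.56, 6.29 and 4.73 TPM against 0.888, 0.0601 and 0.251 TPM.

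Itgb8, a second Itgav partner that binds latent Tgfb, read 9.77, 1.66, 12.4 and 4.96 normalised counts in the controls. It was highest with BMP5 (62.8, 48.2 and 89.4) and BMP7 (57.2, 35.5 and 60.6), ahead of BMP2 (20.4, 17.9, 54.1 and 35.4). With BMP4 it read 2.37, 0 and 1.2, at or under 3 reads, so no fold is given. Its log2 changes were 3.25 (SE 0.53, limma adjusted p = 0.00017) with BMP5, 2.88 (SE 0.53, adjusted p = 0.0004) with BMP7 and 2.12 (SE 0.49, adjusted p = 0.000741) with BMP2. Itga7, a laminin receptor known from muscle, read 29.6, 43.3 and 28.7 with BMP4 and 7.43 to 13.3 in the controls (1.55, SE 0.40, adjusted p = 0.00214). Itgam and Itga10 share 68.67% and 33.53% of their exon bases with same-strand gene models (Gm49368 and Gm42957), so their values are uncertain. Itgam changed by 1.81 (adjusted p = 1.67e-05) with BMP4 and -1.54 (adjusted p = 2.77e-05) with BMP2, and Itga10 by -1.70 (adjusted p = 0.00134) with BMP2. Itga2b rose by 1.21 (adjusted p = 0.0139) with BMP2, from 6.61 to 11.5 in the controls to 10.1 to 30.6.

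The proteins that work with the integrins were read from gene lists. Of 6 tested hemidesmosome partners of Itga6 and Itgb4, 6 rose with BMP2, BMP4, BMP5 and BMP7, and 5 of 5 tested rose with Tgfb. Of all genes 36.8%, 33.7%, 16.5%, 19.2% and 31.4% rose in these comparisons. Krt14 in the BMP table and Plec and Dst in the TGFb table averaged under the minimum of 10 in the controls and passed it through the treated samples. Plec, the plectin that links Itgb4 to keratin, read 2702 ± 690 normalised counts in the controls (SD, n = 4), 19780 ± 7417 with BMP2 (n = 4) and 10660 ± 1514 with BMP4 (n = 3). Its log2 changes were 2.83 (SE 0.22, limma adjusted p = 1.36e-09) with BMP2, 2.0 (SE 0.24, adjusted p = 8.54e-07) with BMP4 and 2.65 (SE 0.15, adjusted p = 8.7e-06) with Tgfb. The keratin Krt14 had the largest change of the list, 9.19 (SE 0.62, adjusted p = 1.29e-10) with BMP2, from 1.65 to 3.55 in the controls to 1300 to 3680, a size that rests on a few control reads. The smallest called changes were those of Cd151 with BMP2 (2.52, adjusted p = 4.54e-13) and Tgfb (1.31, adjusted p = 6.42e-05), Krt18 with BMP4 (0.66, adjusted p = 0.00291) and Dst with BMP5 (0.71, adjusted p = 0.0281) and BMP7 (0.82, adjusted p = 0.0105). Col17a1 and Krt5, which complete hemidesmosomes in skin, did not pass the filter and read at most 11.7 and 3.80 normalised counts.

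Laminin chains are the ligands of Itga3 and Itga6. With BMP2, 5 of 7 tested rose and 0 fell; with BMP4, 3 rose and 3 fell; with BMP5 and BMP7, 6 rose each; with Tgfb, 5 of 5 rose. All genes were higher in 36.8% with BMP2, 16.5% with BMP5 and 19.2% with BMP7, and the BMP4 count was near the 33.7% higher and 31.4% lower of all genes. With Tgfb, 4 of the 5 averaged under 10 TPM in the controls, so the filter favoured those that rose. Lama3, an alpha chain of epithelial laminin, read 197 ± 40.3 normalised counts in the controls (SD, n = 4) and 28050 ± 3292 with BMP2 (n = 4), a log2 change of 7.17 (SE 0.27, limma adjusted p = 2.19e-13). It was the top laminin in every comparison with a call, at 2.27 (adjusted p = 1.49e-06) with BMP4, 4.91 (adjusted p = 5e-09) with BMP5, 5.24 (adjusted p = 2.15e-09) with BMP7 and 6.80 (adjusted p = 3.78e-07) with Tgfb. Lamb3, an epithelial beta chain, changed by 3.30 (adjusted p = 4.35e-12) with BMP2, 1.31 (adjusted p = 4.78e-06) with BMP4 and 2.94 (adjusted p = 2.32e-06) with Tgfb. Lama3 and Lamb3 thus rose with BMP4 too, while Lamb1 had the lowest value there, -1.62 (adjusted p = 0.0144).

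The next list, labelled RGD or collagen ligands, held collagens and other matrix proteins that bind integrins. Not all of them hold the RGD sequence, which the Itgav and Itga5 receptors bind. Of 8 tested, 5 rose with BMP2, BMP5 and BMP7, 0 rose and 2 fell with BMP4, and 3 of 3 tested rose with Tgfb. The 2 of 8 that fell with BMP4 were no larger a share than the 31.4% of all genes, while 33.7% of all genes rose there. With BMP2, BMP5 and BMP7, 36.8%, 16.5% and 19.2% of all genes rose. The collagens tested, Col4a1 and Col4a2, were called with no BMP ligand (with BMP2 0.63 and 0.77, limma adjusted p = 0.405 and 0.318). All 3 tested with Tgfb averaged under 10 TPM in the controls, so the filter favoured those that rose. In the BMP table Spp1 averaged under 10 normalised counts in the controls and passed through the groups where it was high, so its calls were favoured too. Fn1, fibronectin, was at 24.8 ± 10.8 normalised counts in the controls (SD, n = 4), 3142 ± 1855 with BMP2 (n = 4) and 21.5 ± 2.45 with BMP4 (n = 3). Its change was 6.81 (SE 0.40, limma adjusted p = 2.57e-11) with BMP2, 3.73 (adjusted p = 5.77e-06) with BMP5 and 3.81 (adjusted p = 2.77e-06) with BMP7. Thbs1, a matrix protein that binds integrins and activates latent Tgfb, changed by 4.63 (SE 0.46, adjusted p = 2.76e-08) with BMP2, 5.56 (SE 0.11, adjusted p = 3.78e-07) with Tgfb and -2.08 (SE 0.49, adjusted p = 0.00109) with BMP4. Ccn1, another integrin ligand, changed by 2.35 (adjusted p = 0.00194) with BMP5, 2.04 (adjusted p = 0.00457) with BMP7, 3.98 (adjusted p = 5.06e-07) with Tgfb and -1.30 (adjusted p = 0.0314) with BMP4.

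The genes listed for the latent Tgfb pathway, on which Itgav with Itgb6 acts, included the Tgfb receptors Tgfbr1 and Tgfbr2. Tgfbr1 changed by 0.83 with BMP2 (limma adjusted p = 3.42e-05), 0.31 with Tgfb (adjusted p = 0.0163) and -0.685 with BMP4 (adjusted p = 0.000706). Tgfbr2 changed by 0.78 with BMP5 (adjusted p = 0.00418) and 0.88 with BMP7 (adjusted p = 0.0012). With these receptors counted, 6 of 7 tested rose with BMP2, 4 of 7 with BMP5 and BMP7, and 3 of 3 with Tgfb. With BMP4 0 rose and 2 fell. Of all genes 36.8%, 16.5%, 19.2% and 31.4% rose with BMP2, BMP5, BMP7 and Tgfb, and with BMP4 33.7% rose and 31.4% fell. Tgfb1 itself read 65.7 ± 18.0 normalised counts in the controls (SD, n = 4), 913 ± 193 with BMP2 (n = 4), 411 ± 182 with BMP5, 495 ± 91.0 with BMP7 and 47.3 ± 0.603 with BMP4 (n = 3 each). The log2 change was 3.79 (SE 0.25, limma adjusted p = 1.26e-10) with BMP2, and in the Tgfb experiment it was 3.71 (SE 0.28, adjusted p = 3.38e-05). In that experiment Tgfb1 averaged under 10 TPM in the controls and passed the minimum through the Tgfb samples, so the filter favoured its call. Ltbp4, a latent Tgfb binding protein, had the top value with BMP2 (5.80, adjusted p = 1.3e-11), BMP5 (3.42, adjusted p = 1.38e-06) and BMP7 (3.77, adjusted p = 3.19e-07) and the lowest called with BMP4 (-0.97, adjusted p = 0.0217).

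Inside the cell, proteins that regulate integrins or build focal adhesions formed another list. It was not divided by whether a protein activates or restrains integrins. Of 23 tested, 19 rose and 2 fell with BMP2, 18 rose and 0 fell with BMP5, and 18 rose and 1 fell with BMP7. With Tgfb 19 of 21 rose and 0 fell, and with BMP4 10 rose and 7 fell. All genes gave 36.8% higher and 38.4% lower with BMP2, 16.5% and 9.87% with BMP5, 19.2% and 13.2% with BMP7, and 31.4% and 32.9% with Tgfb; the BMP4 count was near its background of 33.7% and 31.4%. Tln1, the talin that binds beta tails, changed by 2.01 (SE 0.14, limma adjusted p = 2.45e-10) with BMP2 and 0.59 (adjusted p = 0.00222) with BMP4. Its paralog Tln2 went the other way, from 759 ± 68.0 normalised counts in the controls (SD, n = 4) to 99.7 ± 30.9 with BMP2 (n = 4), a change of -2.95 (SE 0.22, adjusted p = 5.1e-10), and was also lowest with BMP4 (-1.35, adjusted p = 5.96e-05). Flna, a filamin that binds beta tails, was highest with BMP2 (3.42, adjusted p = 3.54e-11) and Tgfb (3.08, adjusted p = 3.86e-06). Fermt1, the epithelial kindlin, rose by 1.2 (adjusted p = 7.43e-09) with BMP2 and fell by 0.79 (adjusted p = 7.96e-06) with BMP4. Tns4, a tensin that binds beta tails, was highest with BMP4 (1.63, adjusted p = 5.82e-06), BMP5 (2.07, adjusted p = 3.55e-06) and BMP7 (2.57, adjusted p = 2.21e-07). With BMP3 no gene of any of these lists was called.

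**Figure D5:**
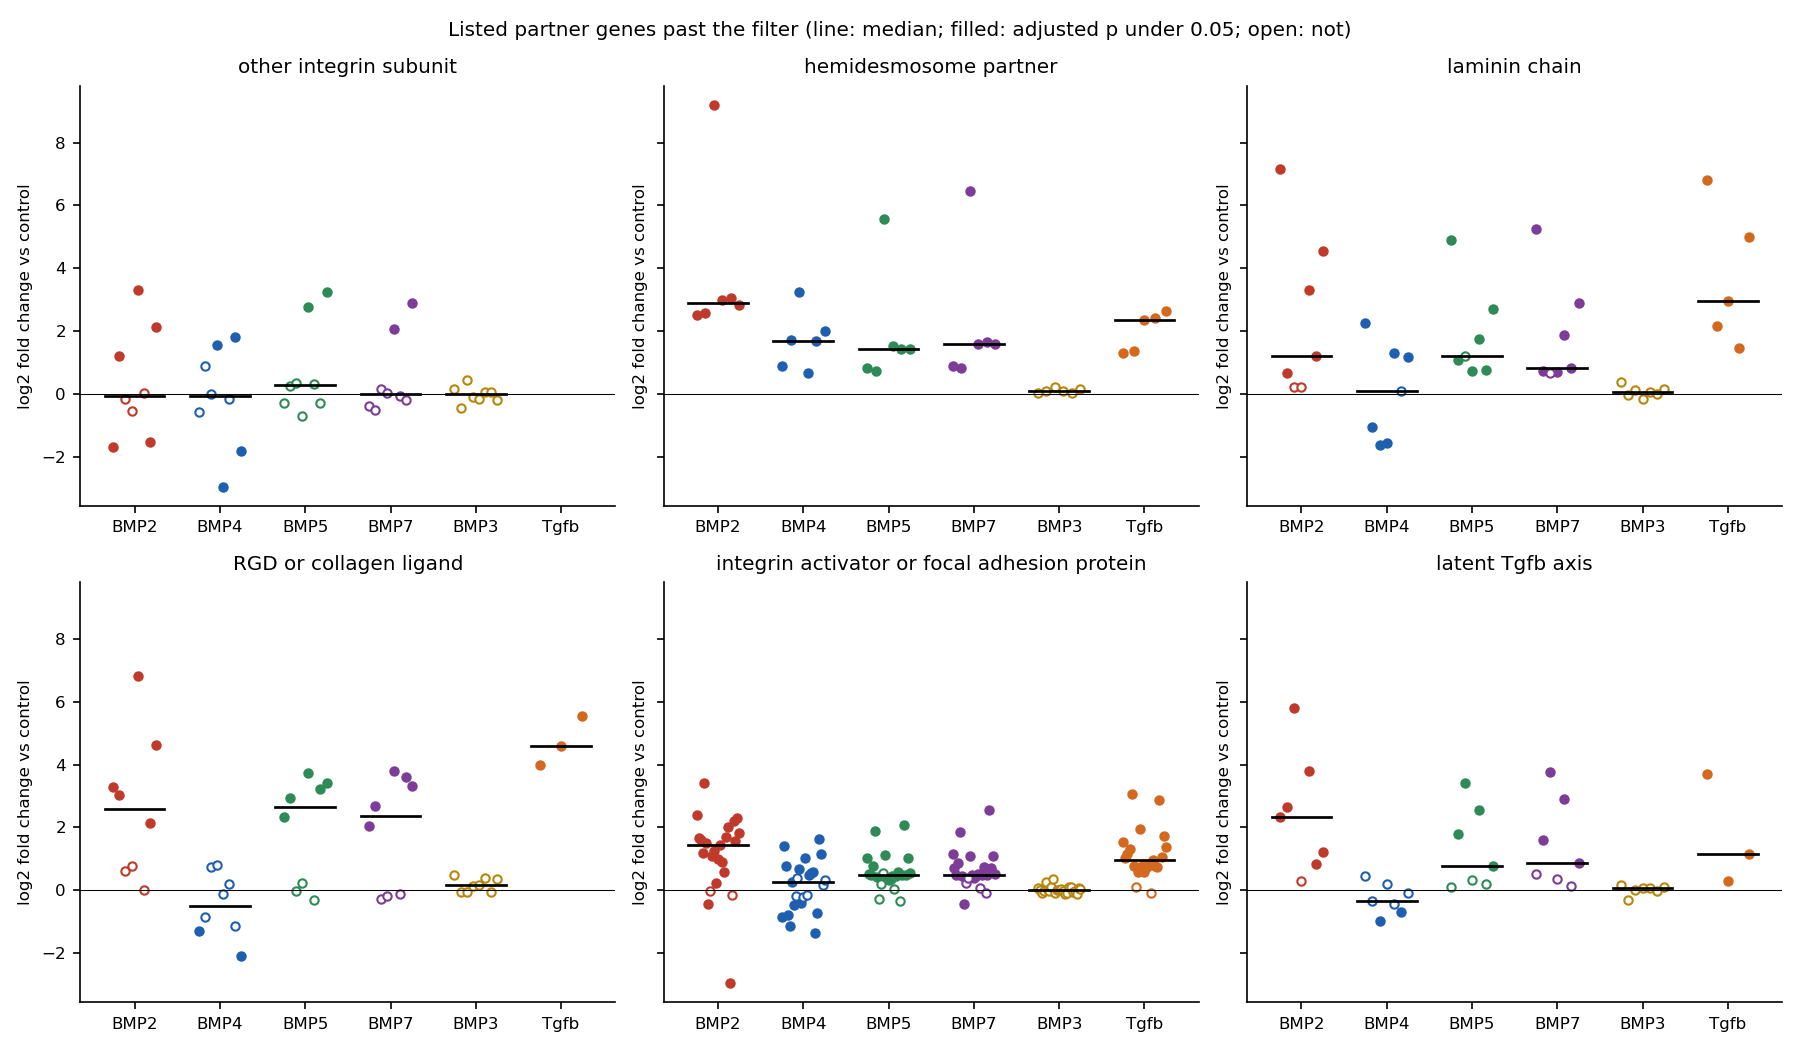
Log2 fold change against controls (vertical axis) of the listed partner genes past the filter, by ligand; points are genes, filled where limma's adjusted p was under 0.05, and lines are medians. Hemidesmosome partners lie above 0 with BMP2, BMP4, BMP5, BMP7 and Tgfb, and BMP3 points lie around 0. Medians of the RGD or collagen ligands and of the latent Tgfb list, receptors included, lie below 0 with BMP4. These medians lie above 0 with BMP2, BMP5, BMP7 and Tgfb.

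Markers of cell types moved with the ligands, and their part in the integrin values was not tested. The crypt stem marker sum was 99820 to 124500 normalised counts in the controls, 99010 to 119300 with BMP3, 24230 to 28510 with BMP7, 27410 to 77170 with BMP5, 3689 to 6504 with BMP4 and 1165 to 2048 with BMP2. With Tgfb it was 165.2 to 172 TPM, against 2504 to 2956 TPM in the controls. The enterocyte marker sum was 346400 to 426400 with BMP4, where 6 of 6 markers rose, against 47750 to 90970 in the controls and 32170 to 80130 with BMP2. The 6 epithelial markers also rose with BMP2, BMP4, BMP5, BMP7 and Tgfb, among them Krt20, a marker of the upper villus, by 4.95 (adjusted p = 1.89e-10) with BMP2 and 4.39 (adjusted p = 9.46e-09) with BMP4 in limma. All 5 crypt markers fell with both BMP2 and BMP4, whereas the enterocyte marker sum exceeded the controls with BMP4 alone among the BMP groups. Single enterocyte markers differed. With BMP2 1 of 6 rose (Alpi, 0.45, limma adjusted p = 0.0394) and 2 fell, Sis most (-3.89, adjusted p = 1.61e-09). With Tgfb 3 rose and 3 fell. None rose with BMP5 or BMP7, where 2 and 3 fell. Of all genes 36.8% rose and 38.4% fell with BMP2, and 31.4% and 32.9% with Tgfb. With BMP5 and BMP7 9.87% and 13.2% of all genes fell.

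Across the 20 samples of the BMP table the members' log2 values were related to one another, as a description over samples that share ligands and controls. The median Pearson correlation of the 45 member pairs was 0.867, and 15 pairs were over 0.9. Such values for pairs of all tested genes are not given, so these describe the members only. Itgav and Itgb6, which form a receptor together, had the highest value, 0.989, and Itga1 with Itga3 the lowest, 0.061. Among all tested genes, the one most like Itgb6 was Sdc3 (0.994), and those most like Itgav were Acvr1 and Anxa5 (0.994 each). Itgb1 was nearest to Myl12a and Ptbp3 (0.996 each), Itgb4 to Lmna and Dsc2 (0.992 each), and Itga5 to Actn1 and Mmp14 (0.988 each). Itga2 was nearest to Ltbp4 (0.989) and Pdgfb (0.988), Itga3 to Serpinb1a and Mxd1 (0.992 each), and Itga6 to Gm29397 (0.988) and Tnk2 (0.987). Itgb5 was nearest to Pmm1 (0.983) and Fcgrt (0.977). Itga1 had the least close neighbours, Fam171a1 (0.948) and Snx10 (0.937).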

How the data were processed

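Poly(A) RNA was measured in 28 samples with the KAPA mRNA kit, per the labels' protocols. The submitters' processing notes name Trim Galore, Salmon, DESeq2 and the build GRCm39, without versions or roles; annotation and strand setting are not given in the sources used here. The authors deposited the BMP table as a signal: read from the values, these are counts of a gene over the sample's size factor, kept to 3 significant digits. All 180721 values of up to 20 reads gave whole reads (100% within 0.1 read), with 1 read worth 0.83 to 1.28 and 21354956 to 24781434 reads per sample; higher values are rounded by those 3 digits. The authors deposited the TGFb and mesenchymal tables as TPM, each sample summing to 1000000, so depth is unknown and no test crossed tables.

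Here log2(value + 1) was fitted with limma 3.58.1 (R 4.3.3) over genes with a mean of at least 10, which left 14746 genes in the BMP table and 7880 in the TGFb table, with groups from the labels and no block. Two-sided p-values were Benjamini-Hochberg adjusted with a threshold of 0.05. On the recovered reads, edgeR 4.0.16 and DESeq2 1.42.0 were run as alternatives, as were other pseudocounts, filters and scalings, a replicate block and leaving out each sample. The fit was tested on simulated data. Replicates differed by more than counting noise (chi-square per degree of freedom 4.45 to 13.51). Samples sharing a replicate number deviated together in every pair for BMP3, BMP4, BMP5 and BMP7 against control and for BMP5 against BMP7 (correlations 0.150 to 0.566), a pairing read from the data since the labels give only the number; this was not so for BMP2, Tgfb or BMP2 against BMP4.

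All members, the other subunits and the listed partners and markers were chosen with earlier results of these data known. Every member is named; of the partner lists, the rule names the genes with the highest and the lowest called change in a comparison. Outside it, Plec with BMP ligands, Lamb3, Tgfb1, Tln1, Fermt1, Col4a1, Col4a2, Col17a1, Krt5 and Krt20 were named for their known role after their values were seen. Comparisons with control share the same control samples. Exon overlaps come from GENCODE vM21 and promoters from RefSeq, both on GRCm38, so no gene coordinates in the submitters' build are given.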

Additional observations from a re-analysis of the deposited data

Results flagged for a closer look

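Itga6 in the BMP controls was picked out because 1 sample lay far from the others. Replicate II read 9890 normalised counts, and the nearest control read 8540. The gap was 0.844 of the range of the 4 controls, above the 95% critical value of Dixon's test for 4 samples. This was 1 of 20 groups of 4 tested, and chance alone picks out about 1 in 20. The BMP4 difference of Itga6 was 0.30 with all controls (adjusted p = 0.0574 in limma) and passed the threshold without control replicate II (adjusted p = 0.0363).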

How the results depend on the processing

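Of 56 member differences that were called, 52 kept their direction and their side of the threshold in every alternative run (12 to 18 each). The other 4 were lost in some: Itga1 with BMP2, and Itga2, Itgb1 and Itgb6 with BMP4, with values given above. Counts of members under BMP4 ranged from 5 to 7 higher and 2 to 4 lower. Both uncalled differences tracked here changed sign. Itga6 with BMP4 became -0.31 after quantile normalisation and -0.10 at the same total. It was higher and called with the replicate block, in DESeq2 and without control replicate II, BMP4 replicate II or BMP4 replicate III. Itgb5 for BMP2 against BMP4 became 0.085 in edgeR and 0.035 in DESeq2, and ran from -0.22 to 0.14 when 1 replicate was left out.

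Over all genes, BMP3 against control gave 1 call in DESeq2 and 0 to 1 when 1 replicate was left out. BMP5 against control gave 3884, and 2517 to 4301 when 1 replicate was left out. Tgfb against control gave 5065 calls, 1749 with a minimum mean of 50 TPM and 7855 with no filter. Fewer or more genes were tested there. At 50 TPM 4 members passed the filter and all 4 were higher. Of these, Itga2 and Itgb4 averaged 18.4 and 21.4 TPM in the controls and passed through the Tgfb samples, so the filter favoured their calls. The share of all genes higher at that filter is not given. BMP5 against BMP7 gave 2 calls, and 0 with a pseudocount of 0.1, 7 with a pseudocount of 10, 4 with a minimum mean of 1, 0 with one of 50 and 4 with no filter. It gave 1 after quantile normalisation, 1 at the same total, 4 in edgeR, 24 in DESeq2, and 0 to 9 when 1 replicate was left out (9 without BMP5 replicate III). The share of higher genes among these few calls ran from 0% (quantile) to 100% (same total). The cause of these changes was not tested.

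The replicate block raised the BMP5 against BMP7 count to 6, and it moved Itga6 with BMP4 past the threshold (0.29, adjusted p = 0.0404 in limma). No other member call changed with the block. The TPM tables hold no depth, and 3 samples a group cannot reach an exact permutation p under 0.1.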
